A study of Mus musculus with 112 samples.

Results

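The genes described here are 10 immediate early and stress genes, Fos, Fosb, Jun, Junb, Jund, Atf3, Egr1, Ier2, Dusp1 and Zfp36, chosen by name from the 32285 genes of the counts table because cell dissociation can raise them. They were measured by 3' RNA sequencing of small amounts of RNA (SC3-seq) in 3 cell populations sorted from the crypts of aged (23 to 27 months) and young (2 to 3 months) C57BL/6 mice of both sexes. All mice carried Lgr5-eGFP-IRES-CreERT2, a reporter in which the Lgr5 promoter drives GFP, and no group lacked it, so the sorting of stem cells and progenitors rested on the level of that reporter. Paneth cells, which secrete antimicrobial granules beside the stem cells, were sorted as GFP negative cells high in CD24 and side scatter, and progenitors as GFP medium to low, Epcam high and CD24 low cells. Intestinal stem cells (ISCs) were sorted as GFP high, Epcam high and CD24 low. The samples comprised 12 aged (7 males, 5 females) and 12 young (6 and 6) Paneth animals, 10 aged and 10 young progenitor animals (5 males and 5 females each), and 12 aged (7 males, 5 females) and 11 young (5 males, 6 females) ISC animals. All 112 libraries came from crypts taken apart with the same warm enzyme treatment, and no undissociated tissue or group without that step was analysed here, so the part of the handling in any level was not tested.

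Immediate early genes are transcribed within minutes of a signal, without new protein synthesis, by factors already present in the cell. FOS and JUN proteins pair to form AP-1, which binds promoters and enhancers of later genes, and in the intestinal crypt AP-1 is known as an output of growth factor and stress kinases in epithelial regeneration. ATF3 and EGR1 are stress and growth factor inducible transcription factors, IER2 is a small nuclear protein of the same early wave, DUSP1 is a phosphatase that switches off the p38 and JNK kinases, and ZFP36 binds AU-rich messenger RNAs and promotes their decay. Most of these transcripts are short lived, and warm enzymatic dissociation is known to induce them.

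The promoters of the 4 genes around which the age results turn are printed as the 250 bases before the RefSeq start (GRCm38.p6), read 5' to 3' on the gene's strand, with TGACG on either strand, the core of the site bound by CREB and ATF factors, in capitals. They lie at chr12:85473640-85473889 (plus strand) for Fos, chr7:19310046-19310295 (minus strand) for Fosb, chr1:191183334-191183583 (minus strand) for Atf3 and chr17:26508473-26508722 (minus strand) for Dusp1.
Fos: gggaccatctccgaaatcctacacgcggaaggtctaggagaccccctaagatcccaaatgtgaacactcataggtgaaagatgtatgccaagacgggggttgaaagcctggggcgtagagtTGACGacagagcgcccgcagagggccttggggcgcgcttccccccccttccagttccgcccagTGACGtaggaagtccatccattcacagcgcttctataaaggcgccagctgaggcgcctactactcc
Fosb: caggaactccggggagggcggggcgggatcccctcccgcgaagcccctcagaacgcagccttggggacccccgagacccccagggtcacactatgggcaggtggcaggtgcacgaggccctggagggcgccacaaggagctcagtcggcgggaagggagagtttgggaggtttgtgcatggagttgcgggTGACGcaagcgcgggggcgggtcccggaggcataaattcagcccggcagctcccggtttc
Atf3: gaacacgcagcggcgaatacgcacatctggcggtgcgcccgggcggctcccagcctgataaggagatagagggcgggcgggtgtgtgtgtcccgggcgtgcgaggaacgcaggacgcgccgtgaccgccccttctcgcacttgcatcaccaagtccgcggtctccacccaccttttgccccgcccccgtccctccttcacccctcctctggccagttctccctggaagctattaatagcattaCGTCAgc
Dusp1: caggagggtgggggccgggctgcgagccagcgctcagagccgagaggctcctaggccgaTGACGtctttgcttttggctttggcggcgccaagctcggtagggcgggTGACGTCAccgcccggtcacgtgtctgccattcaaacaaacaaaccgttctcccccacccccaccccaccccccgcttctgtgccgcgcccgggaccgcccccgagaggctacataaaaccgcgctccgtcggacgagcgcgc
TGACG lay 129 to 125 and 66 to 62 bases before the start in Fos, 60 to 56 in Fosb, 7 to 3 in Atf3 (as its reverse complement) and 191 to 187 in Dusp1. The full palindrome TGACGTCA lay 143 to 136 bases before the start of Dusp1 and holds TGACG on both strands. Windows of 300 bases around the start were found for 8 of the 10 genes, with none for Egr1 and Ier2. TGACG was in the windows of 5 genes (Fos, Fosb, Junb, Atf3 and Dusp1) and in 20.8% of all 32851 windows, and TGACGTCA was in 1 (Dusp1) and in 1.79% of windows. The AP-1 site TGANTCA was in none of the 8 and in 7.81% of windows, and the CArG box of serum response factor was in 1, Zfp36, and in 1.63% of windows. These matches describe letters and not bound sites.

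The genes lie on chromosome 12 (Fos, 85473890 to 85477273), 7 (Fosb, 19302696 to 19310051, and Zfp36, 28376784 to 28380253), 4 (Jun, 95049034 to 95052222), 8 (Junb, 84974484 to 84978718, Jund, 70698949 to 70700616, and Ier2, 84661331 to 84662852), 1 (Atf3, 191170296 to 191218039), 18 (Egr1, 34859823 to 34864984) and 17 (Dusp1, 26505590 to 26562128) of GRCm38. Strand use in counting was not given in the sources used here. Where the genes overlap, reads of Jun, Jund and Zfp36 therefore cannot be told apart from those of the antisense genes Junos, Gm11175 and Gm44710. These overlaps do not reach the annotated 3' ends of Jun, Jund and Zfp36. At the 3' end of Junb, reads cannot be told apart from those of Prdx2, which runs the other way. The annotated spans of Atf3 and Dusp1 reach far upstream of the RefSeq starts and overlap Gm24748 (Atf3) and, among others, Gm8225 and Ergic1 (Dusp1). Levels are given as counts per M after TMM scaling (CPM), a scaling that sets most genes equal between samples, and levels of different genes are not compared.

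Samples held 2.82 to 11.8 M counts per animal in Paneth cells, where 2 or 3 technical libraries were summed, 2.48 to 7.57 M in progenitors and 2.18 to 5.59 M in ISCs. Mitochondrially encoded genes took means of 51.6% and 61.6% of counts in aged and young Paneth samples. They took 4.18% and 4.42% in aged and young progenitors and 5.63% and 6.27% in aged and young ISCs. Paneth markers summed to medians of 224436 CPM in aged and 165327 CPM in young Paneth samples, against 384 and 386 CPM in aged and young ISCs. Stem cell markers summed to medians of 10096 CPM in aged and 9075 CPM in young ISCs, while aged and young progenitors held 1299 and 1378 CPM and aged and young Paneth samples 3040 and 2679 CPM of them. Goblet markers summed to medians of 16994 CPM in aged and 17167 CPM in young progenitors. They were at 608 and 540 CPM in aged and young ISCs and 5841 and 5206 CPM in aged and young Paneth samples. The part of goblet cells in the levels of the 10 genes was not tested. A pair of ISC libraries stood apart for the 10 genes. Aged female 2 had the highest sum of them among 23 ISC samples, 869 CPM, with 289 CPM of immune markers, which were at most 13.3 CPM in the other 22 samples. Ptprc, 1 of the 17 immune markers summed, was at 0 in all 23, so these sums rest on the other markers. Of those others, 2 had enough counts to be tested for age. The part of immune cells in the levels of aged female 2 was not tested. Young male 1 had the second highest sum, 796 CPM. In bulk samples a change in the share of cells that express a gene and a change in RNA per cell cannot be told apart.

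**Figure D1:**
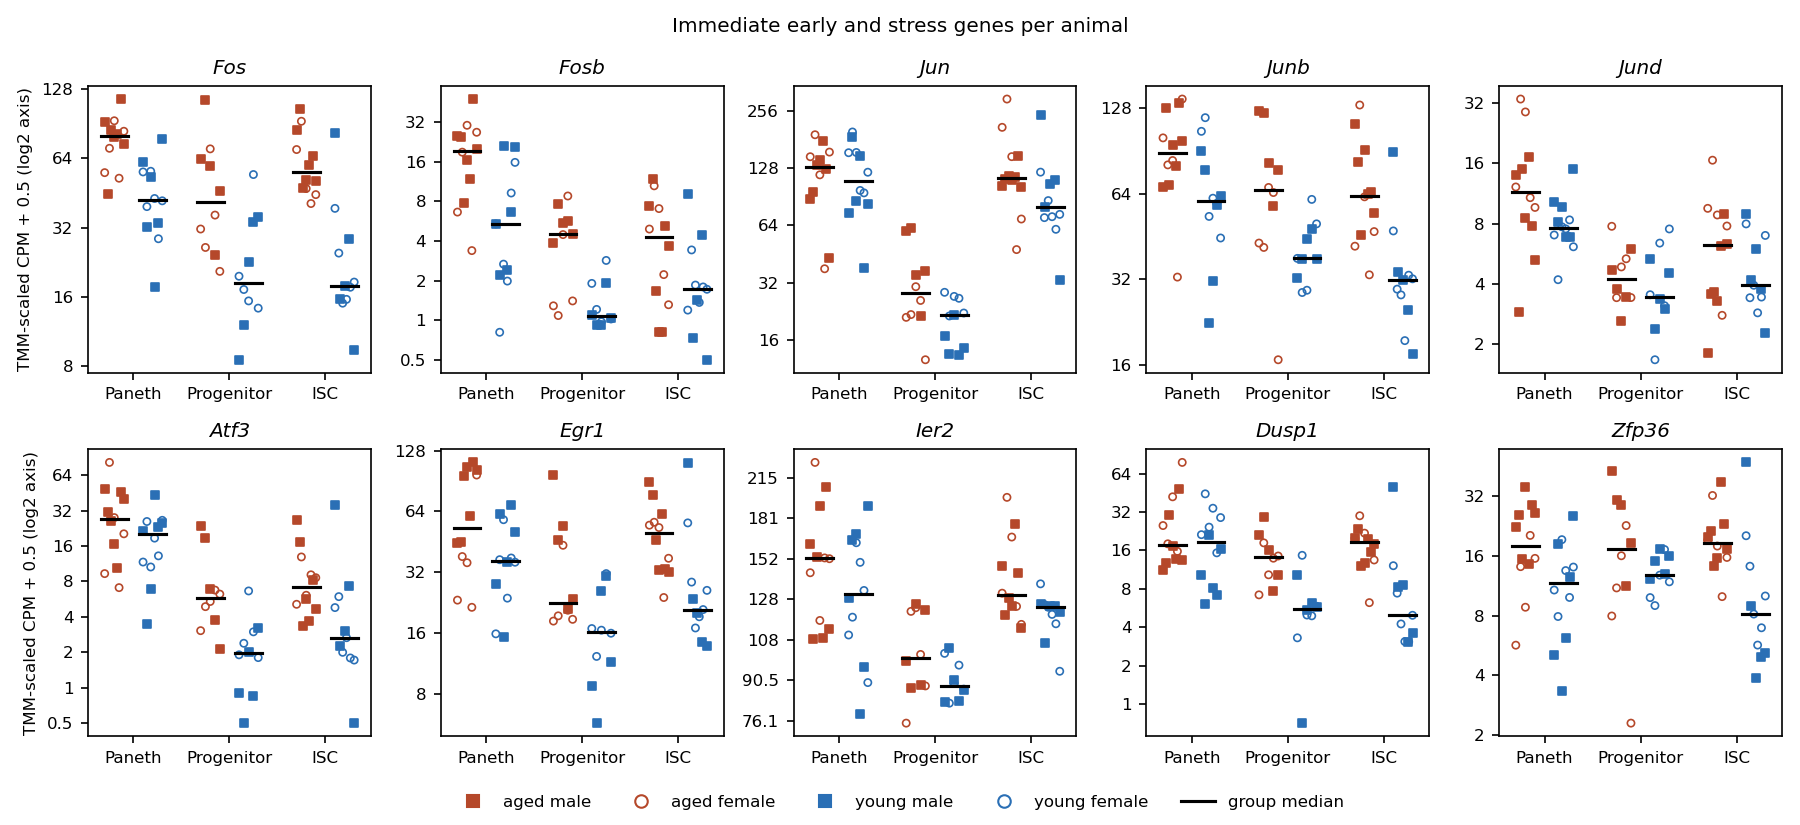
Level of each of the 10 genes in each animal (TMM-scaled CPM plus 0.5, log2 axis), by cell population, with squares for males, circles for females and bars for group medians. Median Fos was 55.0 CPM in aged and 17.4 CPM in young ISCs, and 1 young male ISC sample, at 81.4 CPM, sits among the aged ones.

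In ISCs, aged animals had higher estimates than young ones for each of the 10 genes, led by Fos, but none passed the test. Fos, the inducible partner of AP-1, had 40.2, 55.0 and 104 CPM (lowest, median and highest of 12) in aged ISCs, against 8.92, 17.4 and 81.4 CPM in 11 young ISCs. All 12 aged samples lay above the young median, and the groups overlapped only through the top young sample, young male 1, since the next highest young value was 38.2 CPM. The log2 fold change was 1.26 ± 0.29 (SE), and the edgeR quasi-likelihood test with Benjamini-Hochberg adjustment over 11958 genes gave an adjusted p of 0.0589. Fosb, an inducible relative that can replace Fos in AP-1, had 0.31, 3.81 and 11.4 CPM in aged and 0, 1.22 and 8.58 CPM in young ISCs, a difference of 1.11 ± 0.61 over strongly overlapping groups.

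Among the JUN genes, Junb had 32.7, 62.5 and 130 CPM in aged ISCs and 17.0, 31.4 and 89.1 CPM in young ISCs. Again all 12 aged samples exceeded the young median, with a log2 fold change of 0.93 ± 0.26 (edgeR adjusted p = 0.160). Jun, the main AP-1 partner and a target of JNK, had 47.3, 113 and 294 CPM in aged and 32.8, 79.1 and 241 CPM in young ISCs (0.45 ± 0.29, edgeR adjusted p = 0.729). Jund, the least inducible of the family, differed by 0.45 ± 0.36, with medians of 5.76 CPM in aged and 3.45 CPM in young ISCs.

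Egr1, a zinc finger factor downstream of ERK, had 23.5, 49.4 and 89.4 CPM in aged ISCs and 13.4, 20.4 and 111 CPM in young ISCs. Atf3, the stress factor of the ATF family, had 2.82, 6.63 and 26.3 CPM in aged and 0, 2.16 and 35.5 CPM in young ISCs. For both genes every aged sample exceeded the young median, yet the highest sample was young male 1, and the fold changes were 0.60 ± 0.34 for Egr1 and 0.75 ± 0.55 for Atf3. Ier2 varied least, with 113, 130 and 197 CPM in aged and 93.6, 123 and 136 CPM in young ISCs (0.22 ± 0.10).

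The feedback genes had the same form. Dusp1 had 5.74, 18.2 and 29.4 CPM in aged ISCs and 2.57, 4.46 and 49.5 CPM in young ISCs, a log2 fold change of 0.96 ± 0.38. Zfp36 had 9.47, 18.02 and 37.1 CPM in aged ISCs and 3.37, 7.64 and 46.7 CPM in young ISCs, a change of 0.70 ± 0.35. All 12 aged samples lay above the young median for both, and young male 1 was again the highest sample of the set.

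The edgeR test called 0 of the 10 genes in ISCs at an adjusted p below 0.05, against 42 (0.351%) of all genes tested. DESeq2 and limma-voom each called 1 of the 10, Fos. DESeq2 called 106 of all genes, and the number with limma-voom is not given here. With edgeR, unadjusted p was below 0.05 for 4 of the 10 genes and for 8.90% of all genes. The count turned on the young libraries: without young male 1 the same test called 5 genes, where 0.436% of all genes were called, with log2 fold changes of 1.66 for Fos, 1.20 for Junb, 1.11 for Egr1, 1.64 for Dusp1 and 1.38 for Zfp36 (edgeR adjusted p between 3.5e-06 and 0.00621), and without young male 5 or young female 1 it called Fos alone (edgeR adjusted p = 0.0477 and 0.0272, with 0.385% and 0.379% of all genes called). Leaving out aged female 2 as well as young male 1 also gave 5 calls, where 0.373% of all genes were called. Enteroendocrine markers had positive estimates in aged ISCs for all 4 of the 8 that were tested, with a median of 1.14 and none called, and the 8 summed to 0.93 to 37.3 CPM in aged and 3.12 to 37.9 CPM in young ISCs. The part of these cells in the 10 genes was not tested. ISC descriptions in the labels end either with or without a number whose meaning is not given. The number was 2 for aged males 1 to 3, of 26 and 27 months, and 1 for every other numbered sample, young or aged. The sum of the 10 genes ran from 397 to 869 CPM in the 10 aged samples with a number and 295 to 355 CPM in the 2 without. In young samples it ran from 279 to 796 CPM in the 6 with a number and 202 to 321 CPM in the 5 without. Within the samples with a number the median log2 fold change of the 10 genes was 0.31 and Fos differed by 1.02, within those without a number the median was 0.49 over the 9 genes tested there and Fos differed by 1.3, and no gene passed in either subset (Fos edgeR adjusted p = 0.344 and 0.395).

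By sex, the estimates in ISCs were positive for 7 of the 10 genes in males, with a median log2 fold change of 0.35, and for 10 of 10 in females, with a median of 0.98. The edgeR test called 0 of the 10 in either sex, against 0.209% of all genes in males and 0.0753% in females, with 2 of the 10 at an unadjusted p below 0.05 in males and 4 in females, against 9.02% and 6.48% of all genes. Fos differed by 1.09 ± 0.41 in males and 1.43 ± 0.42 in females. The estimates for Atf3 and Dusp1 were close to 0 in males: -0.02 ± 0.74 in males and 1.52 ± 0.80 in females for Atf3, and 0.21 ± 0.51 in males and 1.70 ± 0.55 in females for Dusp1. Young male 1 is among the 5 young males, and without it 4 genes passed in males, where 0.165% of all genes were called, and 1 in females, where 0.0905% were. The male minus female difference passed for 0 of the 10 genes, with 0 at an unadjusted p below 0.05 and 0% of all genes called.

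**Figure D2:**
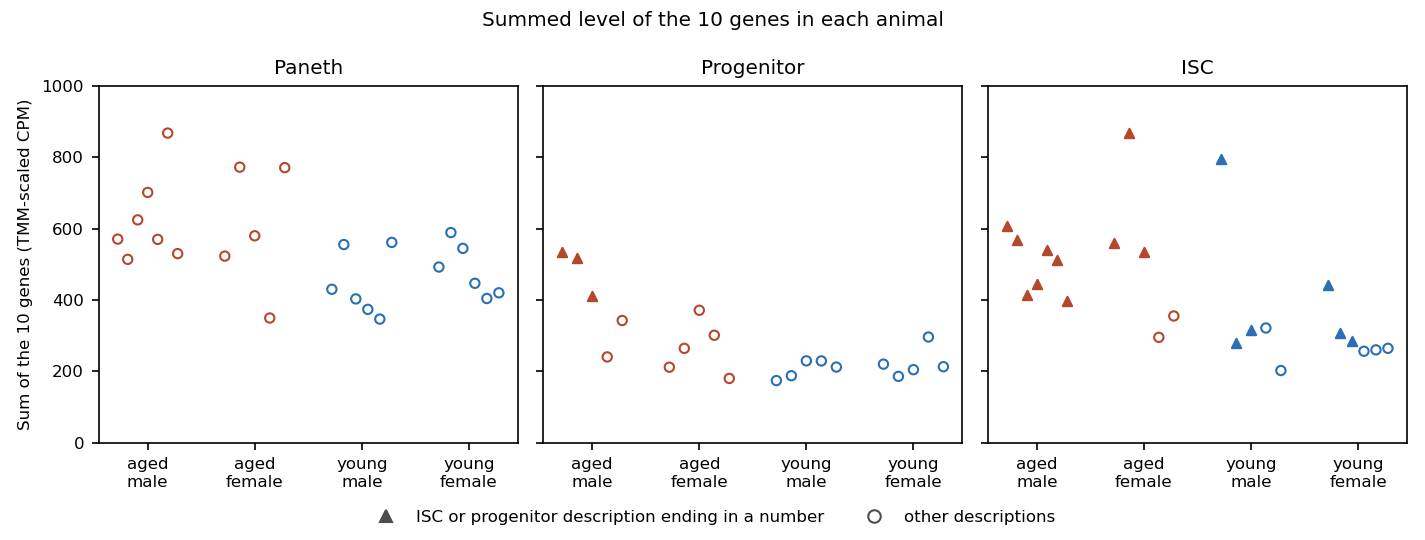
Sum of the 10 genes in each animal (TMM-scaled CPM), by population, age and sex, in red for aged and blue for young animals, with triangles for the ISC and progenitor samples whose label ends in a number. Sums ran from 295 to 869 CPM in aged and 202 to 796 CPM in young ISCs, and the 3 highest progenitor sums, 534, 518 and 411 CPM, belong to aged males whose labels end in a number.

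In progenitors, Fosb and Atf3 rose in aged animals, and the other 8 genes had positive estimates that did not pass. Fosb had 3.37, 7.19, 4.97, 5.16 and 3.99 CPM in the 5 aged males and 0.79, 0.58, 3.97, 8.30 and 0.90 CPM in the 5 aged females. In young progenitors it had 0.60, 0.42, 0.41, 1.42 and 0.54 CPM in males and 1.40, 0.71, 0.47, 2.35 and 0.52 CPM in females. All aged males and 2 aged females exceeded every young sample, and the other 3 aged females fell within the young range. The log2 fold change was 2.09 ± 0.50 (edgeR adjusted p = 0.0308), at 2 to 65 counts per animal. Such counts leave little margin: the call was lost in 11 of the 20 fits that left out 1 animal (young males 1, 2, 3 and 5, young females 2, 3 and 5, aged males 2 and 4, aged females 3 and 4), with log2 fold changes of 1.65 to 2.35 and edgeR adjusted p up to 0.158 over all 20.

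Atf3 had 23.0, 18.1, 6.39, 3.24 and 1.64 CPM in aged male progenitors and 2.55, 4.39, 4.90, 6.25 and 5.74 CPM in aged females. Young males had 0.40, 0, 1.51, 0.36 and 2.7 CPM and young females 1.40, 1.89, 6.14, 2.48 and 1.3 CPM. Every aged sample exceeded the young median of 1.46 CPM, and 4 aged samples exceeded every young one. The groups overlapped, since 4 young samples lay above the lowest aged value of 1.64 CPM, the highest of them young female 3. The log2 fold change was 2.08 ± 0.47 (edgeR adjusted p = 0.0203). It was 1.82 without aged male 1 (edgeR adjusted p = 0.0690) and 1.94 without aged male 2 (edgeR adjusted p = 0.0501). The call was also lost in the fit with replicate number as a block (2.15, edgeR adjusted p = 0.0540). The 2 called genes compare with 0.728% of all genes called in this comparison.

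Fos, Jun and Junb were spread more widely in aged than in young progenitors, with SDs of 28.8 and 14.0 CPM for Fos, 16.5 and 5.77 CPM for Jun and 34.3 and 10.2 CPM for Junb. Fos had 20.2, 40.7 and 114 CPM (lowest, median and highest of 10) in aged and 8.05, 17.96 and 53.8 CPM in young progenitors (log2 fold change 1.02 ± 0.35, edgeR adjusted p = 0.314). Junb had 16.2, 65.4 and 124 CPM in aged and 28.3, 37.4 and 60.6 CPM in young progenitors (0.68 ± 0.20, edgeR adjusted p = 0.124). For Fos all 10 aged samples exceeded the young median and for Junb 9 did, although the lowest Junb value of the set was an aged one. Jun had 12.2, 27.7 and 61.2 CPM in aged and 12.9, 21.1 and 28.1 CPM in young progenitors (0.63 ± 0.18, edgeR adjusted p = 0.110). Jund differed by 0.16 ± 0.34.

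Dusp1 came closest to the threshold after the 2 called genes. It had 6.68, 13.7 and 28.8 CPM in aged and 0.21, 5.10 and 14.1 CPM in young progenitors, with all 10 aged samples above the young median and a log2 fold change of 1.3 ± 0.34 (edgeR adjusted p = 0.0701). Without young female 2, its highest young sample, the difference was 1.57 and passed (edgeR adjusted p = 0.0131). Egr1 had 17.9, 22.0 and 96.5 CPM in aged and 5.25, 15.8 and 31.1 CPM in young progenitors (0.97 ± 0.33, edgeR adjusted p = 0.283). Zfp36 had medians of 16.8 CPM in aged and 12.4 CPM in young progenitors (0.41 ± 0.27), and Ier2 medians of 99.2 and 87.7 CPM (0.18 ± 0.10). Unadjusted p was below 0.05 for 7 of the 10 genes and for 9.06% of all genes.

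In males alone, edgeR called Jun and Atf3 higher in aged than in young progenitors, and the estimates of all 10 genes were positive. Jun had 59.5, 61.2, 34.8, 20.9 and 36.4 CPM in aged males and 16.3, 13.0, 21.3, 12.9 and 14.2 CPM in young males, a log2 fold change of 1.44 ± 0.26 (edgeR adjusted p = 0.00696). In females it had 20.6, 21.3, 30.1, 25.4 and 12.2 CPM in aged and 28.1, 21.0, 26.7, 26.1 and 21.8 CPM in young animals, a change of -0.19 ± 0.25. So 4 of 5 aged males exceeded every young male, whereas female values of both ages overlapped. Atf3 changed by 3.30 ± 0.69 in males (edgeR adjusted p = 0.0271) and by 0.86 ± 0.64 in females. These 2 genes compare with 0.178% of all genes called in males. Unadjusted p in males was below 0.05 for 8 of the 10 genes and for 8.24% of all genes. Junb ran from 57.2 to 124 CPM in aged males and from 32.0 to 47.7 CPM in young males. Neither Junb nor Fosb passed in males (edgeR adjusted p = 0.0753 and 0.112). The difference between the sexes itself did not pass for any of the 10 genes with edgeR, with 0% of all genes called: male minus female was 1.63 ± 0.36 for Jun (unadjusted p = 6.7e-05, edgeR adjusted p = 0.266) and 2.44 ± 0.93 for Atf3 (edgeR adjusted p = 0.783). Without a filter on low counts Jun passed that test (1.63, edgeR adjusted p = 0.0440). Unadjusted p for the difference was below 0.05 for 3 of the 10 and 6.19% of all genes. In females alone edgeR called 0 of the 10, against 0.0847% of all genes, with 0 at an unadjusted p below 0.05.

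The male calls and both calls over the 2 sexes were lost without the oldest animals. Aged males 1 to 3, of 26 and 27 months, were the only progenitor samples whose labels end in a number and held the 3 highest sums of the 10 genes, so age within the aged class and that label cannot be told apart. Without them, Atf3 differed by 1.04 (edgeR adjusted p = 0.692) and Fosb by 2.04 (edgeR adjusted p = 0.165). Male Jun then differed by 0.88 (edgeR unadjusted p = 0.00605, adjusted p = 0.966). The estimates were positive for 9 of the 10 genes, with a median of 0.43. The Fosb difference was nearly as large without these animals. Of the aged males only 4 and 5 remained in these fits, so a lost call cannot be told apart from the effect of a smaller group. Enteroendocrine markers moved with age in the same samples: the 8 markers tested all had positive estimates, 2 were called, and they summed to 241 to 1084 CPM in aged against 82.4 to 326 CPM in young progenitors. Stromal markers summed to 8.25 to 79.4 CPM in aged and 3.36 to 17.8 CPM in young progenitors. Vim was the 1 stromal marker that could be tested, with a log2 fold change of 1.49 that was not called. Pdgfra, another of the 11 summed, was at 0 in every progenitor sample. Enterocyte markers were positive for 8 of 8, with a median of 0.37 and none called. The part of these in the 10 genes was not tested.

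In Paneth cells the 10 estimates were again positive and none passed. Fos had 44.2, 79.6 and 115 CPM in 12 aged and 17.1, 41.8 and 76.8 CPM in 12 young Paneth samples. All 12 aged samples lay above the young median while the groups overlapped, and the log2 fold change was 0.74 ± 0.22 (edgeR adjusted p = 0.275). Fosb had 2.88, 18.9 and 47.5 CPM in aged and 0.31, 4.88 and 20.5 CPM in young Paneth samples (1.37 ± 0.51, edgeR adjusted p = 0.460), with 11 of 12 aged samples above the young median. Jun was at nearly equal levels, 37.5, 129 and 191 CPM in aged and 37.7, 109 and 197 CPM in young Paneth cells, with a difference of 0.02 ± 0.23. Its 95% interval ran from -0.43 to 0.47 on the log2 scale.

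Junb had 32.1, 88.6 and 137 CPM in aged and 22.0, 59.9 and 118 CPM in young Paneth cells (0.47 ± 0.23), and Jund medians of 11.0 and 7.13 CPM (0.79 ± 0.42). Egr1 had 21.0, 52.8 and 111 CPM in aged and 14.9, 36.0 and 68.3 CPM in young Paneth cells (0.59 ± 0.27). For each of the 3 genes most aged samples exceeded the young median, from 9 to 11 of 12, and the ranges overlapped. Atf3 had 6.59, 26.5 and 81.6 CPM in aged and 2.98, 19.6 and 43.1 CPM in young Paneth cells (0.65 ± 0.39). Its difference fell to 0.21 without aged female 2. Dusp1 had 10.7, 17.2 and 77.7 CPM in aged and 5.54, 18.3 and 43.9 CPM in young Paneth cells. Its estimate was 0.61 ± 0.34 although only 5 of 12 aged samples exceeded the young median. Zfp36 differed by 0.52 ± 0.37 and Ier2 by 0.19 ± 0.17.

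The edgeR test called 0 of the 10 genes in Paneth cells, against 0.0686% of all genes, as did DESeq2 and limma-voom, and 4 of the 10 had an unadjusted p below 0.05, against 6.83% of all genes. Within Paneth males and females edgeR also called 0 of the 10 (0.0343% and 0.0171% of all genes), with 3 of the 10 at an unadjusted p below 0.05 in each sex, against 7.11% of all genes in males and 5.20% in females, and the male minus female difference passed for 0, with 0 at an unadjusted p below 0.05 and 0% of all genes called. With unscaled library totals the median of all genes was 0.24 on the log2 scale and the median of the 10 was 0.83, against 0.60 with TMM. The mitochondrial share was 51.6 ± 10.9% in aged and 61.6 ± 6.74% in young Paneth samples (SD, n = 12 each), and its part in the 10 genes was not tested. With mitochondrial genes left out, the median of the 10 was 0.61. Markers of several cell types also had positive estimates in aged Paneth samples, with none called: 8 of 8 Paneth and 6 of 6 goblet markers, 7 of 8 enteroendocrine markers (median 0.65) and 8 of 10 immune markers. Goblet markers summed to 4301 to 11384 CPM in aged and 3526 to 7210 CPM in young Paneth samples, and enteroendocrine markers to 219 to 3686 CPM in aged and 181 to 3132 CPM in young ones. Stromal markers, of which Vim alone could be tested and Pdgfra was at 0 in all 24 samples, summed to 8.99 to 139 CPM in aged and 1.42 to 72.0 CPM in young Paneth samples. The log2 fold change of Vim was 0.86 and was not called. Immune markers summed to 85.7 to 505 CPM in aged and 41.7 to 254 CPM in young ones. Tuft markers had negative estimates for 6 of 6. The part of these cells in the 10 genes was not tested. Technical libraries of the same animal differed widely for these genes. The SD of log2 CPM, here per M counts of nuclear genes, between them was 1.22 for Fos, against 0.69 between animal means, and 2.07 for Atf3, against 1.61, at a median of 64 and 21 counts per library. For Ier2, with a median of 146 counts, the values were 0.51 and 0.46. The SDs between animals are of means over 2 or 3 libraries, so they also hold technical spread and are not on the footing of single libraries.

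**Figure D3:**
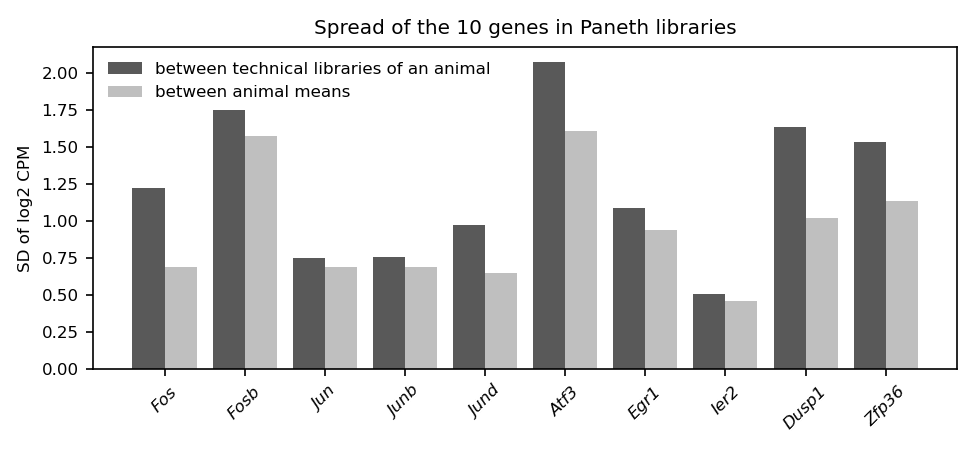
SD of log2 CPM (per M counts of nuclear genes) of the 10 genes in Paneth cells between technical libraries of the same animal (dark bars) and between the means of animals (light bars). Atf3 and Fosb have the tallest dark bars, 2.07 and 1.75, and Ier2 the lowest, 0.51.

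**Figure D4:**
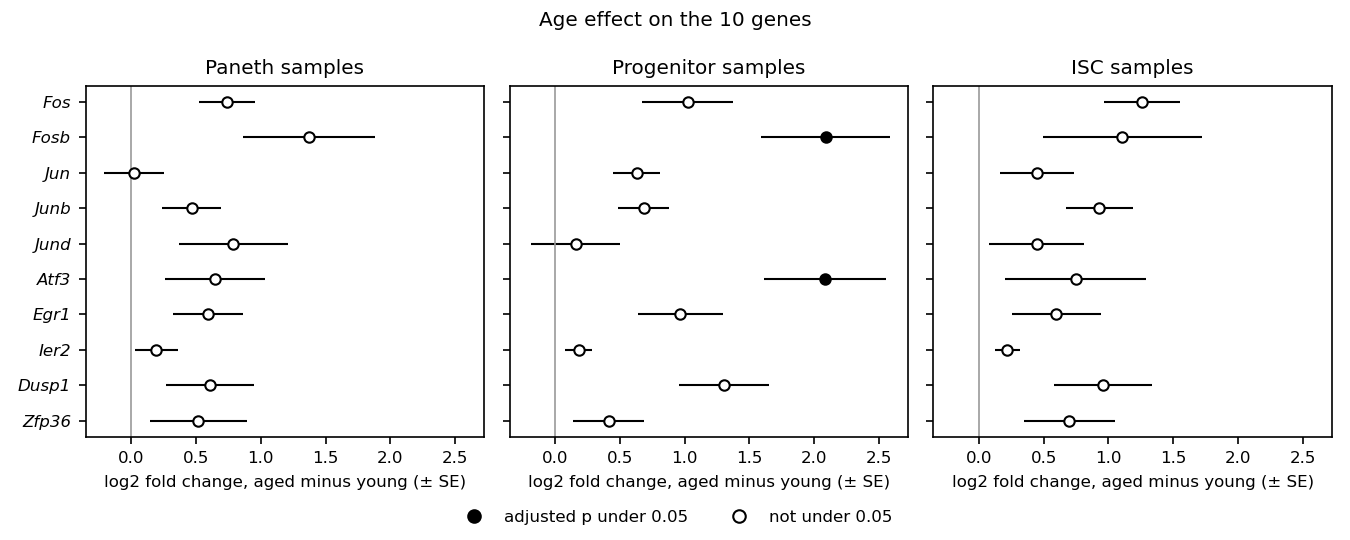
Log2 fold change of each of the 10 genes, aged minus young (point) with its SE (line), by population, with filled points for an edgeR adjusted p below 0.05. All 30 points lie at or right of 0, from 0.02 for Jun in Paneth cells to 2.09 for Fosb in progenitors, and only Fosb and Atf3 in progenitors are filled.

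Side by side, the estimates of the 10 genes had medians of 0.60 in Paneth cells, 0.82 in progenitors and 0.72 in ISCs, and the 30 estimates were all positive, where 50.8%, 50.9% and 49.7% of all genes were. The populations share animals and the 10 genes share libraries, so the 30 values are not independent. The 10 genes were also chosen with earlier results of these data known, so the share of positive estimates is a description. Direct tests of whether the age effect differed between populations called none of the 10 genes with edgeR, and 0 had an unadjusted p below 0.05. Of all genes, 0.00753% were called for progenitors minus ISCs, 0.0376% for Paneth cells minus ISCs and 0% for Paneth cells minus progenitors. Atf3 came nearest: its age effect in Paneth cells minus that in progenitors was -1.41 (unadjusted p = 0.0507, edgeR adjusted p = 0.685). Fosb, called in progenitors alone, is therefore not shown to differ in its age effect between populations.

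Between populations, with both ages and sexes weighted equally, Jun separated progenitors from the rest most clearly. It averaged 120 ± 47.1 CPM in Paneth cells (SD, n = 24), 26.2 ± 13.5 CPM in progenitors (n = 20) and 114 ± 61.6 CPM in ISCs (n = 23). Progenitors were lower than ISCs by a log2 fold change of -2.20 ± 0.20 (edgeR adjusted p = 9.1e-15), while Paneth cells and ISCs differed by 0.09 ± 0.18 (edgeR adjusted p = 0.722). Fosb averaged 13.4 ± 11.7 CPM in Paneth cells, 2.40 ± 2.44 CPM in progenitors and 3.20 ± 3.35 CPM in ISCs. Atf3 averaged 24.3 ± 17.6 CPM in Paneth cells, 4.72 ± 5.83 CPM in progenitors and 7.30 ± 8.50 CPM in ISCs. Paneth cells exceeded ISCs by 1.99 ± 0.39 for Fosb and 1.84 ± 0.35 for Atf3 (edgeR adjusted p = 1.7e-05 and 8.4e-06). With unscaled library totals, where the median of all genes was -1.75 and genes as a whole lay lower in Paneth cells, the differences were 0.25 for Fosb and 0.10 for Atf3 and neither passed (edgeR adjusted p = 0.547 and 0.786). Relative to that median they were 2.00 and 1.85.

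In all, 6 of the 10 genes were higher in Paneth cells than in ISCs with TMM scaling (Fos, Fosb, Junb, Jund, Atf3 and Dusp1, by 0.55 to 1.99), where 22.9% of all genes were called higher. With unscaled totals none of the 6 was called higher, and Fos, Junb, Jund and Dusp1 were at -1.16, -1.03, -0.79 and -0.91, so these directions hold on the TMM scale, relative to most genes, and not per count sequenced. Paneth cells exceeded progenitors for 9 genes, where 21.1% of all genes were called higher, by 0.57 for Ier2 to 2.78 for Atf3, and Zfp36 differed by -0.07 ± 0.24. With unscaled totals the median of all genes was -1.57, Fosb, Jun and Atf3 were still called higher (1.06, 0.68 and 1.19), and the other 6 had negative values, from -0.999 for Ier2 to -0.20 for Jund. Progenitors were lower than ISCs for 4 genes, where 18.4% of all genes were called lower: Jun, Egr1 (-0.71 ± 0.23), Ier2 (-0.43 ± 0.09) and Atf3 (-0.94 ± 0.37, edgeR adjusted p = 0.0345). The Atf3 call was lost with the animal as a block (limma-voom, -0.71, adjusted p = 0.181), and without the animal of ISC young male 1 Atf3 and Egr1 were at -0.50 and -0.44 and only Jun and Ier2 were called.

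By mean level, Ier2 averaged 142 ± 38.3 CPM in Paneth cells, 96.3 ± 15.3 CPM in progenitors and 130 ± 23.2 CPM in ISCs. Egr1 averaged 51.7 ± 30.1 CPM in Paneth cells, 26.5 ± 20.7 CPM in progenitors and 40.9 ± 25.6 CPM in ISCs, and Fos 60.5 ± 24.1, 35.8 ± 25.7 and 44.8 ± 27.7 CPM in these 3 populations. Junb averaged 78.2 ± 31.8 CPM in Paneth cells, 54.8 ± 28.8 CPM in progenitors and 52.5 ± 30.3 CPM in ISCs, Jund 10.5 ± 7.16, 3.82 ± 1.67 and 5.29 ± 3.39 CPM, and Dusp1 23.0 ± 16.5, 10.03 ± 6.95 and 13.5 ± 11.0 CPM. For these 10 genes the order with TMM scaling was Paneth cells, then ISCs, then progenitors in 8, with progenitors second for Junb and ISCs first for Zfp36. Paneth cells and ISCs did not pass the test of a difference for Jun, Egr1 and Ier2, nor progenitors and ISCs for Fos, Fosb, Junb, Jund and Dusp1. Zfp36 averaged 15.3 ± 8.33 CPM in Paneth cells, 15.8 ± 9.12 CPM in progenitors and 16.0 ± 10.8 CPM in ISCs, and no pair of populations passed. Between animals of 1 population the coefficient of variation ran from 15.9% for Ier2 in progenitors to 124% for Atf3 in progenitors.

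The 10 genes varied together between ISC animals once the means of age and sex groups were removed. Over 23 ISC samples all 45 pairs correlated positively, with a median Pearson r of 0.61, whereas pairs of all genes had a median of 0.00059. Dusp1 and Egr1 (0.90), Dusp1 and Zfp36 (0.89) and Fos and Atf3 (0.87) stood at the top, and Ier2, with a median of 0.32 to the other genes, at the bottom. Without young male 1 and aged female 2 the median was 0.39 over 21 samples and 43 of 45 pairs were positive. In Paneth cells (n = 24) the median was 0.14 with 37 of 45 pairs positive, and in progenitors (n = 20) it was 0.26 with 38 of 45 positive. These are descriptions, since the values of a pair share a library and its scaling.

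**Figure D5:**
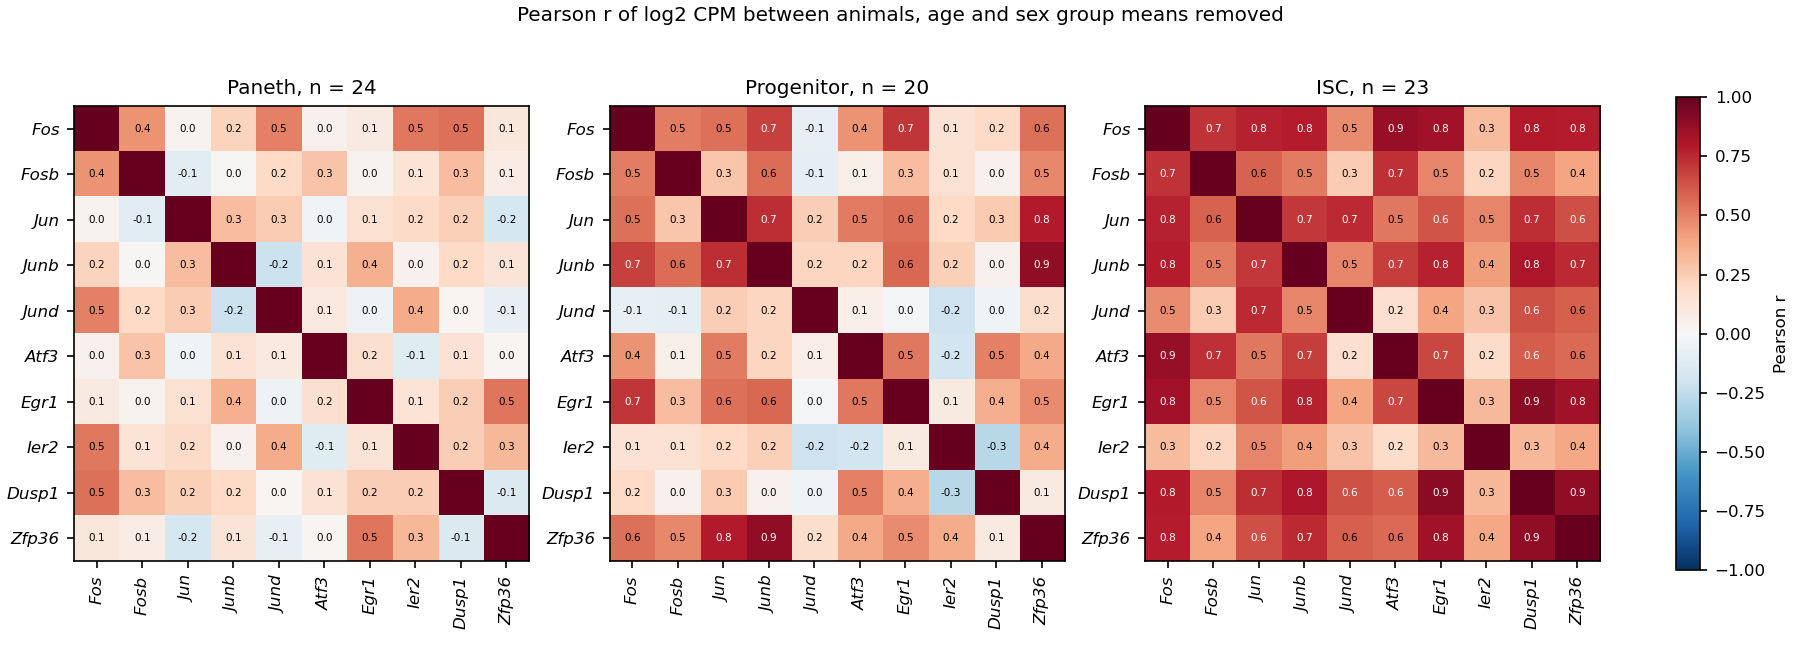
Pearson r of log2 CPM between animals for each pair of the 10 genes, after removing the means of age and sex groups, in Paneth cells, progenitors and ISCs (red positive, blue negative). The ISC square is red throughout (median 0.61), and the Paneth square is mostly pale (median 0.14).

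The genes most like Fos were ranked by the same r among genes of at least 5 CPM. Among 9332 genes in ISCs, Atf3 came first and Egr1, Dusp1, Zfp36, Junb and Jun were all within the first 8, and the nearest other genes were Hexim1 (0.84), an inhibitor of the elongation kinase P-TEFb, Ppp1r10 (0.83), a regulator of protein phosphatase 1 in the nucleus, Sgk1 (0.75), a serum and glucocorticoid induced kinase, Kdm6a (0.74), a histone demethylase, Brd2 (0.73), a bromodomain protein, and Gm26917 (0.73). In progenitors the nearest were Tob1 (0.82), an antiproliferative factor, Fat1 (0.81), an atypical cadherin, Rabl3 (0.79), Slc19a2 (0.78), a thiamine transporter, Magoh (0.78), a core exon junction protein, and Add3 (0.78), with Egr1 at rank 34 and Junb at rank 64. In Paneth cells they were Vwa5a (0.81), Nob1 (0.72), Apbb2 (0.68), Snapin (0.68), Elk4 (0.67), an ETS factor that acts with serum response factor, and Mknk1 (0.66), a kinase downstream of ERK, with Dusp1 at rank 55.

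Among other genes of the pathway, targets of AP-1 and serum response factor had medians of 0.30 in Paneth cells, 0.27 in progenitors and 0.68 in ISCs. Unadjusted p was below 0.05 for 0 of 15 targets in Paneth cells, 5 of 14 in progenitors and 7 of 15 in ISCs, beside 6.83%, 9.06% and 8.90% of all genes. All lists were chosen with earlier results of these data known, so counts within them are descriptions and not an independent test. A single target was called, Gadd45g in ISCs, a growth arrest and stress sensor. It averaged 28.7 ± 14.8 CPM in aged and 14.1 ± 5.23 CPM in young ISCs (log2 fold change 1.02 ± 0.23, edgeR adjusted p = 0.0312), with 8 of 12 aged samples above every young one. In progenitors Gadd45g had 24.9 ± 6.09 CPM in aged and 15.2 ± 4.83 CPM in young animals (0.70 ± 0.18, edgeR adjusted p = 0.0607). In Paneth cells it had 247 ± 85.8 and 192 ± 74.8 CPM (0.36 ± 0.19). Estimates of that list were positive for 10 of 15 genes in Paneth cells, 11 of 14 in progenitors and 12 of 15 in ISCs, and those of other immediate early genes for 11 of 16, 11 of 15 and 12 of 16 in the same order. Other bZIP factors were positive for 5 of 11, 4 of 10 and 7 of 10, and genes of mRNA decay for 2 of 7, 5 of 7 and 7 of 7. MAPK feedback genes were positive for 6 of 9, 5 of 8 and 4 of 9, EGFR ligands for 4 of 4, 2 of 5 and 5 of 5, and EGFR and MAPK signalling genes for 13 of 21, 9 of 21 and 12 of 22. Heat shock genes, also known to respond to dissociation, were positive for 3 of 13, 5 of 13 and 4 of 13 with medians of -0.25, -0.10 and -0.06, and integrated stress response genes for 4 of 8, 2 of 8 and 3 of 6. In each list other than the targets, 0 to 3 genes had an unadjusted p below 0.05 in any population, and no gene other than Gadd45g was called by edgeR.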

How the data were processed

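SC3-seq libraries were made from 1 ng of RNA, per the labels' protocols. The deposited counts per gene came from the authors' pipeline with cutadapt 3.0, STAR 2.7.9a, HTSeq 0.13.5 and DESeq2 1.30.1 on mm10, per the submitters' processing notes, which give these names with no role or order; the annotation release and strand setting were not given in the sources used here. Deposited CPM values equalled the deposited counts scaled to the library total within 4.95e-10, so the counts were used. Libraries held 1.08 to 7.57 M counts. The 69 Paneth libraries were summed per animal, giving 67 samples under 36 animal names. Rows without a gene symbol (127, with 0.00162% of counts) were kept under their identifiers. The members and all gene lists were chosen with earlier results of these data known.

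Genes were filtered by filterByExpr (minimum count 10), scaled by TMM and fitted in R 4.3.3 with the robust quasi-likelihood F test of edgeR 4.0.16, with 4 groups of age and sex per population. The age effect was the mean of the male and the female difference, and adjusted p is by Benjamini-Hochberg over all genes tested, called below 0.05. All 10 genes passed the filter in each of these fits. Population levels and differences of age effects came from 1 fit of 12 groups. The SE is that implied by the F statistic. Biological coefficients of variation were 0.333 in progenitors, 0.706 in Paneth cells and 0.433 in ISCs. Printed levels and marker sums are CPM on the 12-group TMM scale, and correlations used log2(CPM + 0.5) with 100000 permutations where a p is given. The edgeR fit of the age effect in each population was checked on simulated counts, and the other steps were not. Counts limit precision: Fosb had 2 to 65 counts per progenitor animal. Coordinates are GRCm38 (GENCODE M21) and promoters RefSeq GRCm38.p6, and the GENCODE spans of Atf3 and Dusp1 start far upstream of their RefSeq starts.

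Sample groups, months and animals came from titles, descriptions and age labels. Whether aged male Paneth sample 6, whose animal name repeats that of another aged male with an added suffix, is the same mouse was not given in the sources used here, and 1 aged female has 24 months on its ISC label and 23 months on its other labels. Same-numbered replicates did not deviate together (median r 0.00299 over 30 progenitor pairs, 0.00917 over 33 Paneth pairs and 0.0133 over 31 ISC pairs), so no block was used. Samples of the same animal pair across populations by origin and had a consensus correlation of 0.0868, and a block for the animal was tried there. Alternatives changed the scaling, the filter, the tool (DESeq2 1.42.0, limma 3.58.1), the block, the covariates and the samples. Genes like Fos were named as the 6 with the highest r that are not members. Genes of the pathway lists were named where called, and members throughout.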

Additional observations from a re-analysis of the deposited data

Results flagged for a closer look

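Dixon's 95% value for a gap, whose rate of 1 in 20 holds for independent normal values, was applied to unlogged CPM of genes that share libraries. The count of flags is therefore not set against that rate. Within groups of 5 to 7 animals, a larger gap set a sample apart from the rest in 19 of 120 combinations of gene, population, age and sex. Of these, 6 came from 1 library, ISC young male 1, which was the highest of 5 young males for Fos (81.4 CPM), Junb (89.1 CPM), Atf3 (35.5 CPM), Egr1 (111 CPM), Dusp1 (49.5 CPM) and Zfp36 (46.7 CPM). The Paneth sample of the same animal ranked 18 of 24 for the sum of the 10 genes. This library had 4.68 M counts, a mitochondrial share of 5.95% and 13.3 CPM of immune markers, the highest among young ISCs. The part of these in its levels was not tested.

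Other single samples stood highest in their group. In progenitors these were young female 4 for Fos (53.8 CPM) and Egr1 (31.1 CPM), young male 4 for Fosb (1.42 CPM), young female 3 for Atf3 (6.14 CPM), young female 2 for Dusp1 (14.1 CPM) and aged female 3 for Egr1 (43.1 CPM). In Paneth cells they were aged female 2 for Atf3 (81.6 CPM) and aged female 5 for Egr1 (96.5 CPM). In ISCs they were aged male 6 for Jun (148 CPM), aged male 5 for Zfp36 (37.1 CPM), young female 2 for Fosb (2.92 CPM) and young female 1 for Egr1 (55.7 CPM). ISC young male 2 was the lowest of its group for Ier2 (106 CPM).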

How the results depend on the processing

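In progenitors the 2 called genes were 4 with DESeq2, 1 with a mean of at least 5 CPM, and 0 with limma-voom, with age alone, without the animals of 26 and 27 months, with all 12 groups in 1 fit and with the label ending as a covariate (0 to 4 leaving out 1 sample, 0 without aged male 2). Fosb did not pass the filter with a mean of at least 5 CPM, with age alone or with the label ending, so its call was not tested there. Calls among all genes, 86, were 142, 57 (age alone), 34, 9 and 36 with DESeq2 and the last 4 of these (65 to 102 leaving out 1). In male progenitors the 2 were 0 without the oldest animals and 1 to 3 leaving out 1 sample (0 to 0 for the sex difference, which was 1 without a filter). In ISCs the 0 were 1 with DESeq2 and with limma-voom, 2 with all 12 groups and 5 without young male 1 and aged female 2 (0 to 5 leaving out 1), 4 in males without that pair (0 to 4) and 0 to 1 in females. Calls among all genes, 42, were 106 with DESeq2, 17 with and 9 without a number in the label (36 to 58 leaving out 1). Calls among all genes in ISCs with limma-voom and with all 12 groups are not given here. The counts of the 10 genes in those fits are therefore not read as particular to them. In Paneth cells the count stayed 0 under every alternative run, and the 8 calls among all genes were 22 with unscaled totals, 29 with DESeq2, 14 with limma-voom, 2 without the oldest animals, 346 with 12 groups and 3 with the first technical library (3 to 13 leaving out 1). The cause was not tested. With replicate number as a block, which the labels do not give as a pairing, 4 of the 10 genes passed in ISCs, 1 in progenitors, 1 in male progenitors and 1 each in male and female ISCs. The share of all genes called in these block fits is not given here, so these counts are not read as particular to the 10 genes. Signs turned for Jun in ISCs without a number (-0.25), for Zfp36 in progenitors without the oldest animals (-0.0032) and with the label covariate (-0.012), and for Jun in Paneth cells with age alone (-0.0020) or leaving out 1 sample (-0.0695 to 0.16). Levels with unscaled totals turned to -1.16, -1.65, -1.03, -0.79, -1.46, -1.57 and -0.91 for Fos, Jun, Junb, Jund, Egr1, Ier2 and Dusp1 in Paneth cells minus ISCs, to -0.76, -0.98, -0.20, -0.62, -0.999 and -0.31 for Fos, Junb, Jund, Egr1, Ier2 and Dusp1 in Paneth cells minus progenitors, and to -0.0565 for Junb in progenitors minus ISCs. Zfp36 turned to 0.0165 with DESeq2 size factors (Paneth cells minus progenitors) and 0.0385 with the animal block (progenitors minus ISCs), and leaving out 1 animal it ran from -0.17 to 0.0224, -0.13 to 0.31 and, for Paneth cells minus ISCs, -0.21 to 0.27. Leaving out 1 animal gave 2 to 4 calls for progenitors minus ISCs.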

Other observations

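Among animals sampled in several populations, no relation of the levels of the 10 genes between populations passed the test. Over 30 relations of a gene between a pair of populations, with group means of age and sex removed, none passed adjustment (lowest Benjamini-Hochberg adjusted permutation p = 0.182). The median r of the 10 genes was 0.22 for progenitors and ISCs (10 animals), -0.10 for Paneth cells and ISCs (15 animals) and 0.23 for Paneth cells and progenitors (14 animals), where medians over all genes were 0.15, 0.11 and 0.11. In the same order r was positive for 9, 4 and 8 of the 10, beside 62.4%, 61.9% and 61.2% of all genes. The highest r of all was Zfp36 in progenitors and ISCs (0.73, permutation p = 0.0229, adjusted p = 0.250). In Paneth cells and ISCs it was Junb (0.58, permutation p = 0.0250, adjusted p = 0.250). The highest between Paneth cells and progenitors was Jun, with a Pearson r of 0.68 (permutation p = 0.00606, adjusted p = 0.182), a Spearman rho of 0.75 (permutation p = 0.00268, adjusted p = 0.0804) and an r of 0.80 without the 2 farthest animals. Of 18 relations of Fos and Atf3 to depth, mitochondrial share and immune markers, none passed. Fos and immune markers in ISCs gave an r of 0.44 (permutation p = 0.0480, adjusted p = 0.432), a rho of 0.41 (permutation p = 0.0562, adjusted p = 0.506) and an r of 0.39 without the 2 farthest samples.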
